A study of Mus musculus with 9 samples.

Results

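The genes described here are 9 genes of hepatic nitrogen handling: the urea cycle enzymes Cps1, Otc, Ass1, Asl and Arg1, the urea cycle activator gene Nags, and Hal, Sds and Gls2, which encode ammonia-releasing enzymes of periportal hepatocytes. They were taken by gene symbol from a table of 54532 genes, and all 9 passed the filter on low values, a mean over the 9 libraries of 1 FPKM or more, which left 9699 genes. FPKM count the sequenced fragments of a gene per unit of its length, scaled by a factor for each library that came with the deposited values. RNA came from the livers of male C57BL/6 mice of 5 to 7 weeks, with 3 libraries in each of 3 groups. The NC group was the control. The APAP group received 500 mg/kg acetaminophen (APAP) intraperitoneally after an overnight fast, and livers were taken after 6 h. The AMSC group received the same APAP dose and directly afterwards 200000 adipose-derived mesenchymal stem cells (AMSCs) through the tail vein, and livers were taken at the same time. The AMSCs were grown from inguinal fat of C57BL/6 mice. The methods describe the fast for all animals ahead of APAP, and whether this covers the NC group is not stated. The AMSC libraries carry the replicate numbers 2, 3 and 4 and the others 1, 2 and 3.

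The urea cycle turns ammonia, which is toxic, into urea, and in mammals the complete cycle runs almost entirely in hepatocytes. Its enzymes and the enzymes that release ammonia from glutamine, histidine and serine are strongest around the portal vein, while hepatocytes around the central vein capture the remaining ammonia as glutamine. The pericentral hepatocytes are also those that convert most APAP to its reactive product.

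Transcripts of the urea cycle were abundant in all 9 libraries. The 5 cycle enzymes together took 0.734% to 0.874% of the summed FPKM of a library in the NC group, 0.699% to 0.754% in APAP and 0.752% to 0.883% in AMSC. The APAP range overlapped both of the other ranges. The genes did not move together. In the comparison of APAP with NC, Nags fell and Sds and Gls2 rose, which was 3 of 9 genes (33.3%) against 25.9% of all genes tested (12.8% higher and 13.1% lower). In the comparison of AMSC with APAP, Hal alone fell, which was 1 of 9 (11.1%) against 3.78% of all genes (1.64% higher and 2.14% lower). In the comparison of AMSC with NC, Asl and Sds rose and Hal fell, again 3 of 9 (33.3%) against 26% of all genes (14.1% higher and 11.9% lower). A gene is said to rise or fall where the adjusted p of limma was at most 0.05, and all other differences are given as values. The shares of members called in APAP against NC and AMSC against NC lay near the shares of all genes, and with 9 genes a single gene moves a share by 11.1 percentage points.

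Each library held between 13418921 and 16210930 reads on genes, and the 9 genes had 759 to 89119 reads each in a library. The 16 hepatocyte markers (such as Alb and Apoa1) were above 0 in every group, and their summed level was 61850 to 67240 FPKM in NC, 81280 to 97260 in APAP and 78190 to 81770 in AMSC. In whole liver, fewer cells of a type and less RNA per cell cannot be told apart. In the zonal markers APAP replicate 1 stood apart, with the highest pericentral marker sum of its group (3087 FPKM against 778.2 and 1641), the lowest periportal sum (5456 against 7568 and 7321) and the lowest level of Sds. In the markers of other cells NC replicate 3 had the highest macrophage (243 FPKM against 123 and 129.7), endothelial (52.3 against 24 and 30.3) and erythrocyte sums (254 against 134 and 138) of its group. APAP replicate 2 had the lowest macrophage (176 against 331 and 473) and erythrocyte sums (306 against 1073 and 1406) of its group. Calls that were lost without a library are given with their value without it.

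**Figure D1:**
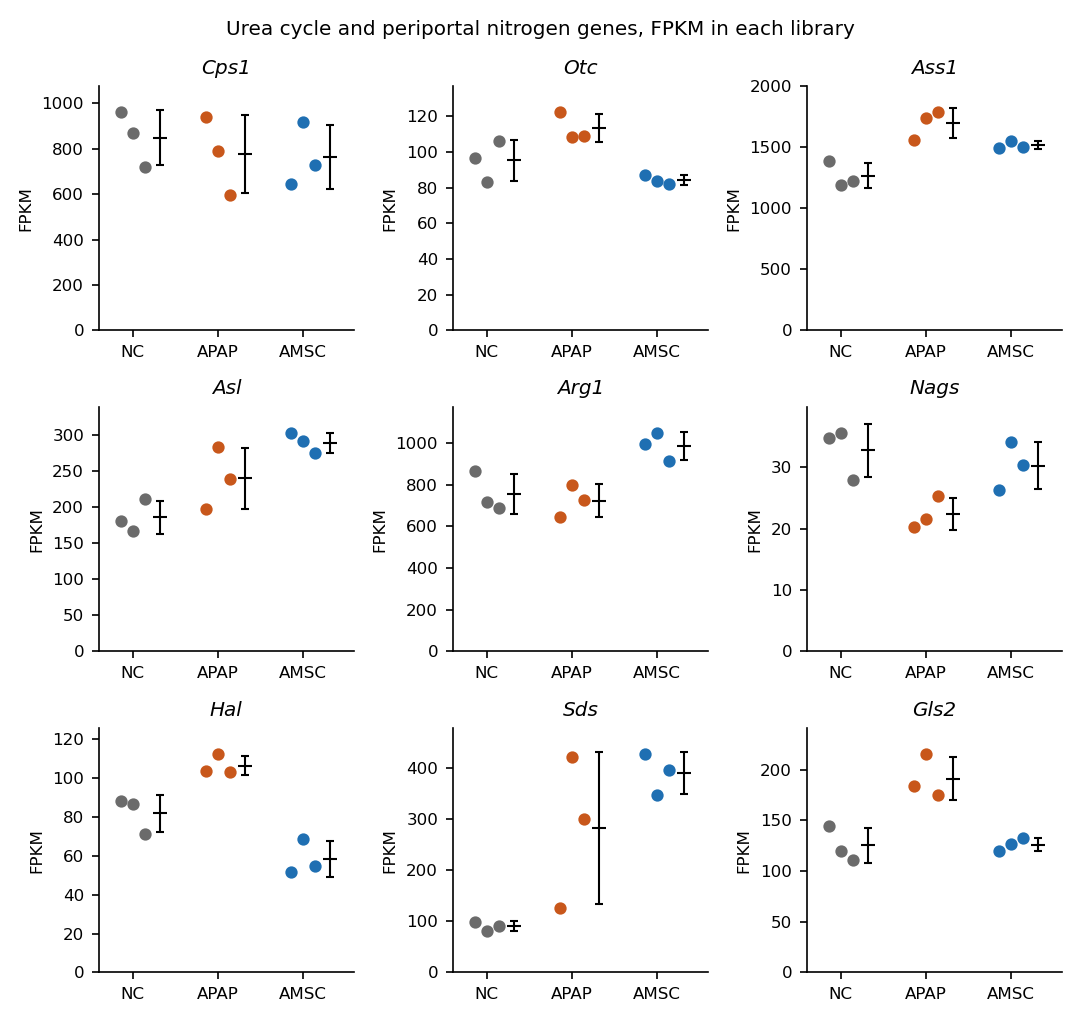
FPKM of each gene in each library (points, replicates from left to right) with the group mean and SD (n = 3, black bars) for NC (grey), APAP (orange) and AMSC (blue), each axis starting at 0. Sds was at most 99.6 FPKM in NC and at least 348 FPKM in AMSC, Hal was lowest in AMSC, and the Cps1 groups overlapped.

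Cps1 (ENSMUSG00000025991, chr1:67123026-67231259 on GRCm38), which makes carbamoyl phosphate from ammonia in the first step of the cycle, had 962, 868 and 719 FPKM in NC, 942, 792 and 596 in APAP, and 647, 919.9 and 727 in AMSC. The 3 groups overlapped throughout. The log2 fold change was -0.14 ± 0.20 (SE, 95% confidence interval -0.61 to 0.32, adjusted p = 0.633) for APAP against NC, -0.01 (-0.50 to 0.48, adjusted p = 0.984) for AMSC against APAP and -0.16 (-0.55 to 0.24, adjusted p = 0.538) for AMSC against NC. With quantile normalization AMSC against NC was -0.48 (adjusted p = 0.0453) and passed the threshold. The intervals in the deposited scale leave room for a difference of APAP from NC of up to 0.61 on the log2 scale. Cps1 had the widest relative spread of the cycle enzymes within the AMSC group, with a coefficient of variation of 18.4%.

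Otc (ENSMUSG00000031173, chrX:10252305-10321024), which joins carbamoyl phosphate and ornithine to citrulline in the mitochondrion, had 96.6, 83.2 and 106 FPKM in NC, 122, 108 and 109 in APAP, and 87.4, 83.8 and 82.0 in AMSC. All APAP values lay above all values of both other groups, with the closest pair being NC replicate 3 and APAP replicate 2. The difference of APAP from NC (log2 fold change 0.25, adjusted p = 0.211) and that of AMSC from APAP (-0.42, 95% confidence interval -0.69 to -0.15, adjusted p = 0.101) did not pass the threshold. AMSC and NC overlapped (-0.17, adjusted p = 0.329).

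Ass1 (ENSMUSG00000076441, chr2:31470207-31520672), which condenses citrulline with aspartate in the cytosol, was the highest of the 9 genes in every group. It had 1385, 1190.1 and 1226 FPKM in NC, 1556, 1743 and 1788 in APAP, and 1490.4, 1553 and 1504 in AMSC. Each group occupied its own range, with NC lowest, AMSC between and APAP highest. The difference of APAP from NC was at the edge of the threshold (log2 fold change 0.42 ± 0.13, adjusted p = 0.0508). It passed the threshold without APAP replicate 1 (adjusted p = 0.0414), at a minimum mean of 5 FPKM (0.0432), with all 9 libraries fitted together (0.0222), without the trend (0.0404) and with voom (0.0381). These settings kept the deposited scale. The same difference was -0.03 with quantile normalization (adjusted p = 0.867). With hepatocyte scaling it was 0.01 (adjusted p = 0.946), which is 0.35 above the median of all genes in that scale. The differences of AMSC from APAP (-0.16, adjusted p = 0.548) and from NC (0.26, adjusted p = 0.144) did not pass.

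Asl (ENSMUSG00000025533, chr5:130011258-130029247), which splits argininosuccinate into arginine and fumarate, had 180.2, 167 and 211 FPKM in NC, 198, 283 and 239 in APAP, and 303, 291 and 275 in AMSC. All AMSC libraries lay above all NC libraries, while APAP spanned most of the distance between them. Asl rose in AMSC against NC, from 186 ± 23.0 to 289.6 ± 14 FPKM (mean ± SD, n = 3 each; log2 fold change 0.64 ± 0.12, adjusted p = 0.00688). This call held without any 1 of the 6 libraries (adjusted p 0.00514 to 0.0321). APAP against NC gave 0.36 (adjusted p = 0.163) and AMSC against APAP 0.29 (adjusted p = 0.358).

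Arg1 (ENSMUSG00000019987, chr10:24915221-24927484), the arginase that releases urea, had 866, 716 and 688 FPKM in NC, 644, 799 and 729 in APAP, and 996, 1048 and 916 in AMSC. The AMSC libraries were above all others, and NC and APAP overlapped. The differences of AMSC from APAP (log2 fold change 0.45, 95% confidence interval 0.12 to 0.78, adjusted p = 0.129) and from NC (0.39, 0.08 to 0.69, adjusted p = 0.0638) did not pass the threshold, and APAP against NC was -0.06 (adjusted p = 0.793). AMSC against NC passed with voom (adjusted p = 0.0459), and it was 0.07 with quantile normalization and 0.02 with hepatocyte scaling. The ratio of Arg1 to Otc, the last and an early step of the cycle, was 6.47 to 8.96 in NC, 5.26 to 7.37 in APAP and 11.2 to 12.5 in AMSC, with AMSC above both. No test was run on this ratio.

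None of the 5 cycle enzymes was called in APAP against NC or in AMSC against APAP by limma, and 1 (Asl) was in AMSC against NC. At an unadjusted p under 0.05 there were 1 (Ass1) and 2 (Otc and Arg1) of 5 in these first and second comparisons. With voom on reads recovered from the FPKM, 1 of 5 was called in APAP against NC, 0 in AMSC against APAP and 2 (Asl and Arg1) in AMSC against NC. Over all genes, 39.1%, 20.9% and 38% had an unadjusted p under 0.05 in APAP against NC, AMSC against APAP and AMSC against NC, and voom called 27%, 4.78% and 27.9%.

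Nags (ENSMUSG00000048217, chr11:102145513-102149477) makes N-acetylglutamate, without which Cps1 is inactive. It had the lowest level of the 9 genes in all groups, with 34.9, 35.6 and 27.9 FPKM in NC, 20.3, 21.6 and 25.4 in APAP, and 26.4, 34.1 and 30.4 in AMSC. Every APAP library lay below every library of the other groups. Nags fell in APAP against NC, from 32.8 ± 4.26 to 22.4 ± 2.62 FPKM (mean ± SD, n = 3 each; log2 fold change -0.53 ± 0.15, adjusted p = 0.0337). The call was lost without NC replicate 1 (adjusted p = 0.129), NC replicate 2 (0.13), APAP replicate 1 (0.063) or APAP replicate 2 (0.0989), and also with the replicate number as a block (adjusted p = 0.0527). AMSC against APAP gave 0.42 (95% confidence interval 0.08 to 0.75, adjusted p = 0.16), and AMSC overlapped NC (-0.11, adjusted p = 0.597).

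Hal (ENSMUSG00000020017, chr10:93488768-93519304), histidine ammonia-lyase, takes the first step of histidine breakdown. It had 88.5, 86.5 and 71.0 FPKM in NC, 104, 112 and 103 in APAP, and 51.5, 68.6 and 54.8 in AMSC, so the 3 groups did not overlap. Hal fell in AMSC against APAP, from 107 ± 5.06 to 58.3 ± 9.09 FPKM (mean ± SD, n = 3 each; log2 fold change -0.87 ± 0.14, adjusted p = 0.0251). It also fell in AMSC against NC (-0.49 ± 0.14, adjusted p = 0.0392), whereas APAP against NC was 0.38 (95% confidence interval 0.07 to 0.69, adjusted p = 0.071). The first of these calls was lost without APAP replicate 2 or 3 or AMSC replicate 2 or 4 (adjusted p 0.0557 to 0.101), and the second without NC replicate 1 or 2 or AMSC replicate 2 or 4 (0.117 to 0.131).

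Promoter sequences are shown for Hal, the only member called in AMSC against APAP, for Nags, the member that fell in APAP against NC, and for Otc, the urea cycle gene with a match to 2 kinds of motif. They are the 250 bases before the RefSeq start of the gene on GRCm38.p6, all on the + strand. RefSeq tables held a promoter of 4 of the 9 genes (Otc, Ass1, Nags and Hal). Letters in capitals match a motif searched on both strands: C/EBP (TTNCNNAA), a cyclic AMP response element half-site (TGACG), a glucocorticoid receptor half-site (AGAACA) or HNF4 (AAAGTNCA). These liver and hormone motifs were picked as those of factors known in hepatic amino acid metabolism.
Hal (chr10:93488518-93488767): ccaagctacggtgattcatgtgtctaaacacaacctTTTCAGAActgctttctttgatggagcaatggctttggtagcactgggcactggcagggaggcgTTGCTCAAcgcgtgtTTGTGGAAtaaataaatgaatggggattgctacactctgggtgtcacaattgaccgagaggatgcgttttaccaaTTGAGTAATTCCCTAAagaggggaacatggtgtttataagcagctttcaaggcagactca
Nags (chr11:102145263-102145512): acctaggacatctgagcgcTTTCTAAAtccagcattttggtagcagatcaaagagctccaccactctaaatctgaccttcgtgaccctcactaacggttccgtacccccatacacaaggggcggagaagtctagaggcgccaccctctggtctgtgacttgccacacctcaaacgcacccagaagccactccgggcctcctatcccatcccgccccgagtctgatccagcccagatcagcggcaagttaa
Otc (chrX:10252055-10252304): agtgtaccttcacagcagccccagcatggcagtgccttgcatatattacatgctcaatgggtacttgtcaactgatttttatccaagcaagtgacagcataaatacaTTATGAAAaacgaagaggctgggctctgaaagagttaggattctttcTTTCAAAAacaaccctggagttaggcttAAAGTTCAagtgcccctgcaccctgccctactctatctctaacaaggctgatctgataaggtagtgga
The Hal window held 5 C/EBP matches, of which the last 2, from -60 to -53 and -52 to -45 before the start, lie directly next to each other and appear as 1 run of capitals. The Nags window held 1 C/EBP match, from -231 to -224. The Otc window held 2 C/EBP matches and, from -68 to -61, the only HNF4 match of the 4 promoters. Of 32851 windows of the same length, 36.8% held a C/EBP match, 17.8% the response element half-site, 16.1% the receptor half-site and 3.53% the HNF4 match. No member window held either half-site. The Ass1 window held no match and had a GC content of 75.6%, against 45.6% for Hal, 55.6% for Nags, 43.6% for Otc and a median of 52.4% over all windows. A match in these letters is a description of the sequence and no evidence of binding.

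Sds (ENSMUSG00000029597, chr5:120476526-120483932), serine dehydratase, turns serine into pyruvate and ammonia and is known as a gene induced by glucagon and fasting. It had 99.6, 81.7 and 91.6 FPKM in NC, 126, 422 and 300.5 in APAP, and 428, 348 and 397 in AMSC. The APAP group was wide, with replicate 1 just above NC, replicate 2 within the AMSC range and replicate 3 below it. Sds rose in APAP against NC, from 91.0 ± 9.01 to 283 ± 149 FPKM (mean ± SD, n = 3 each; log2 fold change 1.46 ± 0.39, adjusted p = 0.0302). Without APAP replicate 1 the log2 fold change was 1.96 (adjusted p = 0.000638), and without any other 1 of the 6 libraries the call was lost (adjusted p 0.0696 to 0.0968). Sds rose in AMSC against NC by 2.09 ± 0.13 on the log2 scale (adjusted p = 2.96e-05), and this call held without any 1 of the 6 libraries (7.11e-05 to 0.000418). AMSC against APAP was 0.63 with a 95% confidence interval of -0.29 to 1.54 (adjusted p = 0.421).

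Gls2 (ENSMUSG00000044005, chr10:128194457-128210004), the liver-type glutaminase that releases ammonia from glutamine, had 145, 120.1 and 111 FPKM in NC, 184, 215 and 175 in APAP, and 119.9, 126 and 132 in AMSC. All APAP libraries were above the other 6, and NC and AMSC overlapped closely. Gls2 rose in APAP against NC, from 125 ± 17.2 to 191 ± 21.3 FPKM (mean ± SD, n = 3 each; log2 fold change 0.61 ± 0.15, adjusted p = 0.022). The call was lost without NC replicate 2 (adjusted p = 0.0827), NC replicate 3 (0.0645) or APAP replicate 2 (0.0774). AMSC against APAP was -0.59 (95% confidence interval -0.90 to -0.29) with an adjusted p of 0.0523. It passed the threshold when all 9 libraries were fitted together (adjusted p = 0.0295), without the trend (0.049) and with voom (0.0406). AMSC against NC was 0.02 (-0.27 to 0.30, adjusted p = 0.931).

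**Figure D2:**
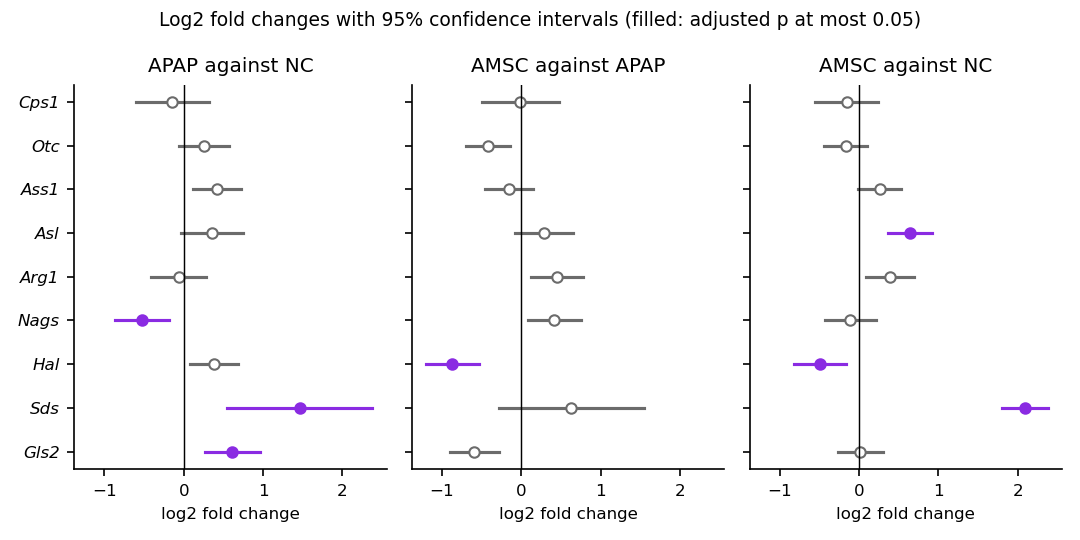
Log2 fold change of log2(FPKM + 1) with its 95% confidence interval from limma for the 9 genes in the 3 group comparisons, 3 libraries against 3. Filled purple points had an adjusted p of at most 0.05: Nags, Sds and Gls2 for APAP against NC, Hal for AMSC against APAP, and Asl, Hal and Sds for AMSC against NC.

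The groups did not overlap for 6 of the 9 genes (66.7%) in APAP against NC, against 43.2% of all genes tested. The corresponding numbers were 6 of 9 (66.7%) against 27% in AMSC against APAP and 5 of 9 (55.6%) against 43.5% in AMSC against NC. The median log2 fold change of the 9 genes was 0.36 in APAP against NC, -0.01 in AMSC against APAP and 0.02 in AMSC against NC, beside medians of 0.00, 0.01 and 0.02 over all genes. When all 24849 genes above 0 were tested, the 3 calls of APAP against NC (adjusted p 0.0649 to 0.15) and those of Hal in AMSC against APAP (0.1) and against NC (0.136) were lost, and those of Asl and Sds in AMSC against NC held. The comparisons share groups of libraries, so their values are not independent of each other.

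In the order of FPKM levels within NC, Ass1 came first, followed by Cps1 and Arg1, which overlapped, then Asl and Gls2, then Otc, Sds and Hal, which overlapped in turn, and Nags last. In AMSC, Sds stood between Cps1 and Asl, and Hal stood between Otc and Nags, with no overlap with these neighbours. In APAP, Sds, Asl and Gls2 overlapped in the middle of the order. The ratio of Sds to Hal was 0.944 to 1.29 in NC, 1.21 to 3.76 in APAP and 5.07 to 8.3 in AMSC, so AMSC lay above both other groups and APAP replicate 1 within the NC range. This ratio restates the levels of Sds and Hal given above, and no test was run on it.

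Several of the genes share exons with genes on the other strand, and whether strand was used in counting is not given in the sources used here. For Sds, these are Gm15690, whose level was 2.81 to 6.8 FPKM in NC, 1.04 to 5.98 in APAP and 2.46 to 16.2 in AMSC, and Plbd2, at 11.7 to 15.2, 18.1 to 20 and 19.1 to 19.9. For Gls2 it is Spryd4, at 20.9 to 26.5 FPKM in NC, 9.17 to 11.4 in APAP and 17.2 to 22 in AMSC, an order opposite to that of Gls2 itself. For Nags it is Gm11586, whose highest level in any library was 0.424 FPKM. Reads from these pairs may have been counted for either gene, so the values of Sds, Gls2 and Nags carry this uncertainty.

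The other genes of histidine breakdown were Amdhd1, the third enzyme of the pathway, and Uroc1 and Ftcd, the second and the last, where Uroc1 and Ftcd are named although they are outside the rule for named genes and were chosen after their values had been seen. Amdhd1 had 79.3, 74.6 and 69.1 FPKM in NC, 128, 164 and 148 in APAP, and 98.9, 100.3 and 106 in AMSC, 3 separate ranges with APAP highest. Amdhd1 rose in APAP against NC (log2 fold change 0.96, adjusted p = 0.00272) and in AMSC against NC (0.45, adjusted p = 0.0142, lost without AMSC replicate 4 at 0.0548), and AMSC against APAP was -0.52 (adjusted p = 0.0831). Ftcd rose in APAP against NC (0.54, adjusted p = 0.0369), a call lost without any NC library or APAP replicate 2 or 3 (0.0537 to 0.13), and Uroc1 was 0.42 (adjusted p = 0.0878) and passed with the replicate number as a block (adjusted p = 0.0286). For AMSC against APAP, Uroc1 was -0.62 (adjusted p = 0.0597) and Ftcd -0.36 (adjusted p = 0.247), the same sign as Hal. Unlike Amdhd1, Hal was lower in AMSC than in NC.

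In the list of 13 tested genes of histidine, serine and glycine breakdown, 4 rose and 1 fell in APAP against NC, none was called in AMSC against APAP (2 at an unadjusted p under 0.05, and 1 by voom), and 3 rose and 1 fell in AMSC against NC. The median log2 fold changes were 0.19, -0.16 and 0.00. The shares called over all genes tested were 25.9%, 3.78% and 26% in these comparisons. Shmt1, which interconverts serine and glycine, fell from 47.8 to 52.7 FPKM in NC to 24.2 to 31.1 in APAP and 25.6 to 28.0 in AMSC (log2 fold changes -0.87 and -0.85, adjusted p = 0.00367 and 0.000708). Agxt, an alanine to glyoxylate aminotransferase, rose by 0.88 in APAP (adjusted p = 0.0229, lost without any 1 of the NC libraries at 0.0549 to 0.0718) and by 0.61 in AMSC (adjusted p = 0.0103), and Gldc of glycine cleavage rose by 0.61 in APAP (adjusted p = 0.0336), a call lost without any NC library or APAP replicate 1 or 2 (0.0657 to 0.109). Sdsl, a relative of Sds, rose by 0.97 in AMSC against NC (adjusted p = 0.000807). APAP against NC was 0.75 for Sdsl without overlap (adjusted p = 0.0526), and AMSC against APAP was 0.22 (0.676).

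Of 9 tested genes that feed or transport urea cycle intermediates, 2 rose and 1 fell both in APAP and in AMSC against NC, and none was called in AMSC against APAP (1 at an unadjusted p under 0.05, and 1 by voom). The medians were -0.22, 0.10 and 0.09 in that order, and 25.9%, 26% and 3.78% of all genes tested were called. Car5a, the mitochondrial carbonic anhydrase that supplies bicarbonate to Cps1, fell from 39.2 to 47.0 FPKM in NC to 15.4 to 21.2 in APAP and 13.7 to 21.9 in AMSC (log2 fold changes -1.13 and -1.24, adjusted p = 0.0023 and 0.0015). Slc7a2, a carrier of arginine and other cationic amino acids, had 24.5 to 55.0 FPKM in NC, 57.4 to 91.8 in APAP and 80.0 to 109 in AMSC. It rose by 1.10 in APAP (adjusted p = 0.0357, lost without NC replicate 2 or 3 or APAP replicate 1 or 2 at 0.0622 to 0.122) and by 1.44 in AMSC (adjusted p = 0.00784). Slc25a22, a mitochondrial glutamate carrier, rose by 0.72 (adjusted p = 0.00762) and 0.68 (adjusted p = 0.0164, lost without NC replicate 2 at 0.06 or AMSC replicate 4 at 0.0619).

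Of 16 tested glutamine and glutamate genes, 2 rose and 5 fell in APAP against NC, 5 rose and none fell in AMSC against APAP, and 5 rose and 4 fell in AMSC against NC, with medians of -0.09, 0.17 and 0.02. Among all genes tested, 25.9%, 3.78% and 26% were called in these comparisons. Glul, the glutamine synthetase of the last hepatocytes around the central vein, had 270.0, 244.9 and 244.7 FPKM in NC, 45.5, 20.7 and 29.4 in APAP, and 112, 138 and 160.3 in AMSC, 3 separate ranges. It fell by 3.02 on the log2 scale in APAP against NC (adjusted p = 0.000296), rose by 2.12 in AMSC against APAP (adjusted p = 0.00998) and was lower in AMSC than in NC (-0.90, adjusted p = 0.00338). Oat, which makes glutamate semialdehyde from ornithine, fell by 3.71 (adjusted p = 0.0037) and rose by 3.28 in AMSC against APAP (adjusted p = 0.0262, lost without APAP replicate 3 or any 1 AMSC library at 0.0754 to 0.101). Slc1a2, a pericentral glutamate carrier, fell by 3.02 (adjusted p = 0.000212) and rose by 1.93 (adjusted p = 0.00812). Glul and Gls2 carry out opposite reactions, and the ratio of Gls2 to Glul was 0.455 to 0.535 in NC, 4.04 to 10.4 in APAP and 0.825 to 1.07 in AMSC, without overlap. No test was run on this ratio either.

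Slc38a2, a carrier of glutamine and alanine, rose from 8.07 to 14.4 FPKM in NC to 60.2 to 70.0 in APAP and 49.6 to 59.5 in AMSC (log2 fold changes 2.52 and 2.30, adjusted p = 0.000246 and 0.000156). Got1, the cytosolic aspartate aminotransferase, rose by 1.06 in AMSC against NC (adjusted p = 0.00102) and by 1.01 in APAP against NC (adjusted p = 0.0168, lost without NC replicate 1 or 2 or APAP replicate 2 or 3 at 0.0502 to 0.0652). Asns, asparagine synthetase, rose by 1.79 in AMSC against NC (adjusted p = 0.000358), and APAP against NC was 0.36 (adjusted p = 0.552), with overlap. Gpt2, the mitochondrial alanine aminotransferase, rose by 1.0 in AMSC against NC (adjusted p = 0.00266) and by 1.0 in AMSC against APAP (adjusted p = 0.0373), the latter call lost without APAP replicate 1 or 3 or any 1 AMSC library (0.0645 to 0.127). The Gpt2 levels of NC (100.6 to 126 FPKM) and APAP (101.5 to 145) overlapped.

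**Figure D3:**
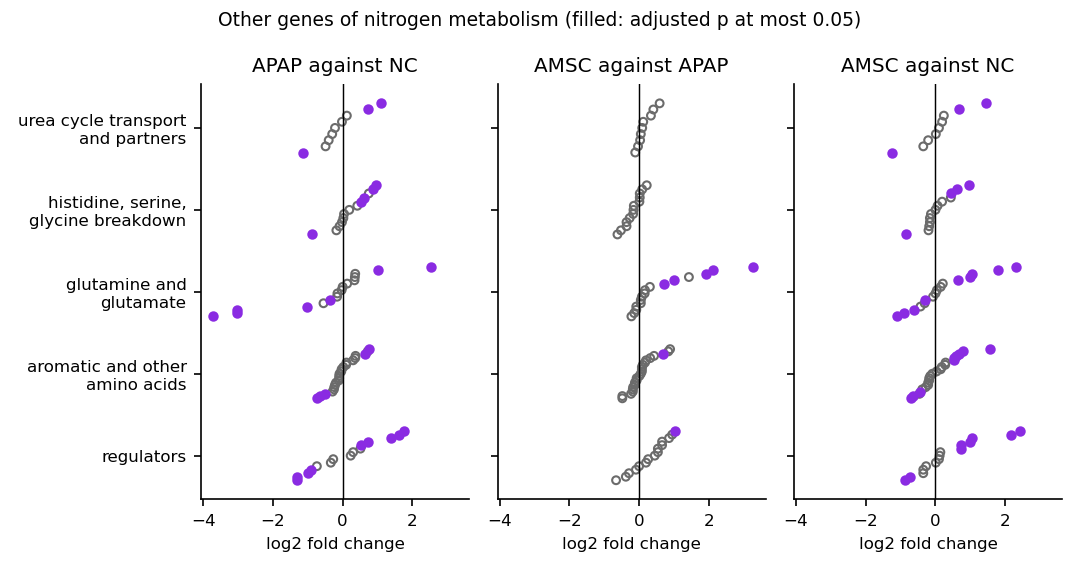
Log2 fold change of each tested gene in 5 lists of nitrogen metabolism (rows) for the 3 group comparisons, filled where the adjusted p was at most 0.05. In APAP against NC the glutamine and glutamate list holds the largest falls (Oat, Glul and Slc1a2), and in AMSC against APAP the same 3 genes rose.

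The zones of the lobule were read from 14 periportal and 15 pericentral marker genes. Of the periportal markers, 8 rose and none fell in APAP against NC (median 0.79), and none rose and 6 fell in AMSC against APAP (median -0.61). Of the 12 pericentral markers tested, 10 fell and none rose in APAP against NC (median -2.28), and 6 rose and none fell in AMSC against APAP (median 1.76). In AMSC against NC, 3 periportal markers rose and 2 fell (median 0.04), while 1 pericentral marker rose and 7 fell (median -0.74). Over all genes tested, 25.9% were called in APAP against NC, 3.78% in AMSC against APAP and 26% in AMSC against NC. Summed periportal levels were 3436 to 4263 FPKM in NC, 5456 to 7568 in APAP and 4604 to 4992 in AMSC, and summed pericentral levels 5855 to 7544, 778.2 to 3087 and 5465 to 5682. Their part in the results of the 9 genes was not tested. The 9 genes followed these markers unevenly: Gls2, Hal, Otc and Ass1 were highest in APAP, as was the periportal sum, whereas Arg1, Asl and Sds had their highest group mean in AMSC, Cps1 its highest in NC and Nags its lowest in APAP.

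Named by the largest changes, the periportal markers that rose in APAP against NC were Apoa4, an apolipoprotein (log2 fold change 2.99, adjusted p = 0.00149), G6pc, the glucose 6-phosphatase (1.89, adjusted p = 0.00694), Hsd17b6 (1.24, adjusted p = 0.0244, lost without NC replicate 1 or 3 or APAP replicate 2 or 3 at 0.0543 to 0.084) and Pck1 of gluconeogenesis (1.23, adjusted p = 0.0188, lost without APAP replicate 2 at 0.0622). G6pc had 50.1 to 142 FPKM in NC, 269 to 345 in APAP and 65.5 to 102 in AMSC, and it fell in AMSC against APAP (-1.86, adjusted p = 0.00473). Sds, which like G6pc and Pck1 serves gluconeogenesis, was at 348 to 428 FPKM in AMSC, and its groups APAP and AMSC overlapped.

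**Figure D4:**
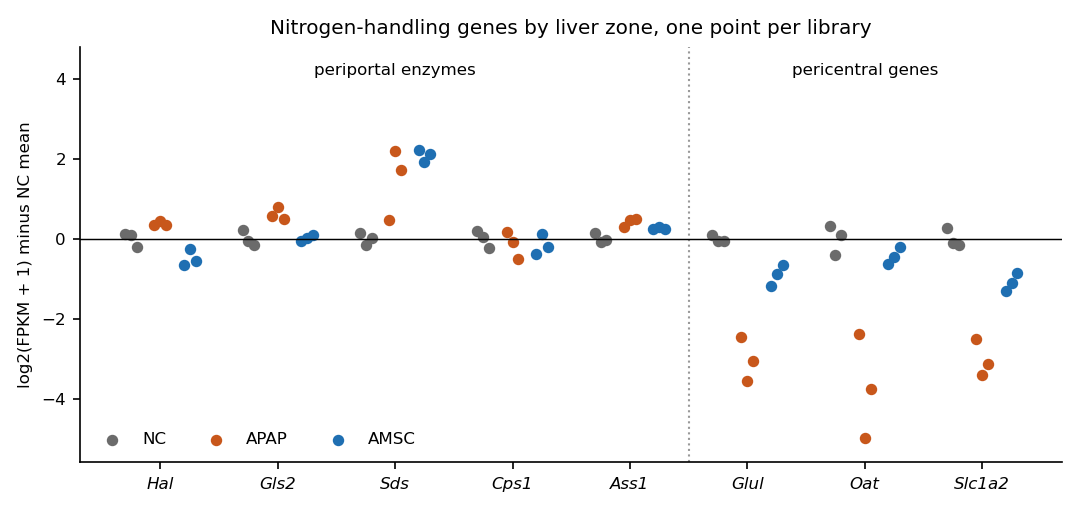
Level of log2(FPKM + 1) minus its NC mean in each library (points) for 5 periportal genes and 3 pericentral genes. Glul, Oat and Slc1a2 lay 2 or more below the NC mean in all APAP libraries, Sds lay well above it in 2 APAP and all AMSC libraries, and Cps1 and Ass1 lay within 1 of it throughout.

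Of 15 tested regulators of amino acid genes, 5 rose and 4 fell in APAP against NC, 1 rose in AMSC against APAP, and 6 rose and 2 fell in AMSC against NC (medians 0.23, 0.45 and 0.12). The shares of all genes called were 25.9%, 3.78% and 26%. Cebpb, a C/EBP family factor of the acute response, had 101, 112 and 99.6 FPKM in NC, 156, 482 and 454 in APAP, and 487, 440.4 and 494 in AMSC. As for Sds, APAP replicate 1 was the lowest of the APAP and AMSC libraries. Cebpb rose in AMSC against NC (log2 fold change 2.17, adjusted p = 9.77e-06) and in APAP against NC (1.63, adjusted p = 0.021, lost without any 1 library other than APAP replicate 1 at 0.0582 to 0.0682). Cebpd rose by 1.77 and 2.43 (adjusted p = 0.00127 and 4.58e-05). Ppargc1a, a coactivator of fasting genes, rose by 1.39 in APAP against NC (adjusted p = 0.00252) and by 0.73 in AMSC against NC (0.00282). Foxa2 fell by 1.31 (adjusted p = 0.0104) and 0.87 (0.0387) in these comparisons. Hnf4a and Foxo1 rose by 1.06 and 0.99 in AMSC against NC (adjusted p = 0.00745 and 0.00515). In APAP against NC, Foxo1 rose by 0.73 (adjusted p = 0.0411) and Hnf4a was 0.51 (0.125). The AMSC calls of Ppargc1a and Foxa2 and the APAP call of Foxo1 were not tried without single libraries. Klf15, a factor known for amino acid breakdown genes, had 49.8 to 81.2 FPKM in NC, 28.3 to 36.4 in APAP and 65.3 to 71.4 in AMSC. It fell in APAP against NC (-0.92, adjusted p = 0.0126) and rose in AMSC against APAP (1.02, adjusted p = 0.0104, 0.0502 without AMSC replicate 3).

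Of the genes outside the list, those whose pattern over the 9 libraries was nearest to that of Sds were Cebpb, Ip6k2 and Hspb8. Their root mean square difference of log2(FPKM + 1) minus its NC mean was 0.185, 0.221 and 0.231, against a median of 1.544 over all genes. Nearest to the mean of the 5 cycle enzymes were Tpp2, Idua and Apmap (0.040, 0.051 and 0.053, median 0.336), and nearest to Nags were Vac14, Rprd1b and Tigar (0.098 to 0.105, median 0.435). Ugt1a9, Smad3 and C2cd2l were nearest to Hal (0.176 to 0.183, median 0.498), and Elmo2, Dll1 and Slc39a4 were nearest to Gls2 (0.121 to 0.132, median 0.475). All of these points share the same libraries.

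Markers of other cell types were read in the same way, against the 25.9% of all genes called in APAP against NC. The macrophage sum was 123 to 243 FPKM in NC, 176 to 473 in APAP and 108 to 174 in AMSC, and of 11 markers 2 rose in APAP against NC and 1 fell in AMSC against APAP. The erythrocyte sum was 134 to 254, 306 to 1406 and 183 to 312 FPKM, and 4 of 5 markers rose in APAP against NC and 1 fell in AMSC against APAP. All 3 tested neutrophil markers, of 8 listed, rose in APAP and in AMSC against NC. The sums were 7.69 to 35.3 and 4.38 to 6.19 FPKM against 0.33 to 1.94 in NC. Ly6g and Mpo were at 0 in NC, and Mpo also in APAP. The NC means of the tested markers were 0.131 to 0.308 FPKM, so they passed the filter through the other groups. Endothelial sums were 24 to 52.3, 28.5 to 78.2 and 24.5 to 26.0 FPKM, stromal sums 22.8 to 41.0, 31.8 to 64.1 and 30.3 to 46.7, and cholangiocyte sums 18.7 to 39.6, 57.4 to 97.4 and 27.3 to 50.5. Of 8 endothelial and 9 stromal markers, 1 each rose in APAP against NC, and of 4 cholangiocyte markers 2 rose. In AMSC against APAP, 20.9% of all genes had an unadjusted p of limma under 0.05. Among the markers these were 10 of 11 macrophage, 3 of 3 neutrophil, 5 of 5 erythrocyte and 5 of 8 endothelial genes. Their list medians there were -1.24, -1.32, -1.51 and -0.76. For stromal and cholangiocyte markers the counts were 3 of 9 and 2 of 4 (medians -0.34 and -0.63). Their part in the results of the 9 genes was not tested.

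A change of scale altered several of these values. Scaling every library to the 16 hepatocyte markers used factors of 0.814 to 0.867 in NC, 1.017 to 1.164 in APAP and 1.048 to 1.13 in AMSC. Of these 16 markers, 7 rose in APAP against NC and 5 in AMSC against NC, and none fell. The shares called among all genes were 25.9% and 26%. Fgb, for example, rose by 0.88 and 1.60 (adjusted p = 0.00288 and 0.000256). In the deposited scale the reference of this scaling therefore differed between groups. These calls were made in the deposited scale, so they cannot decide which scale holds the constant reference. Hepatocyte scaling moved the median of all genes to -0.34 in APAP against NC and -0.28 in AMSC against NC. With this scaling, APAP against NC was -0.15 for Otc, -0.05 for Asl and -0.03 for Hal, against 0.25, 0.36 and 0.38 in the deposited scale. Relative to the shifted median these differences were 0.19, 0.29 and 0.31. Nags then fell by 0.92 (adjusted p = 0.00273) and Arg1 by 0.47 (adjusted p = 0.0285), which is 0.58 and 0.13 below the shifted median. Sds kept its call at 1.06 (adjusted p = 0.037), and Gls2 lost it at 0.20 (adjusted p = 0.312), as it did with quantile normalization (0.34, adjusted p = 0.18). In AMSC against NC, Asl lost its call (0.28, adjusted p = 0.0643, 0.56 above the shifted median), while Otc fell by 0.53 (adjusted p = 0.00576) and Nags by 0.47 (adjusted p = 0.0459), or 0.25 and 0.18 below that median. Cps1 was -0.46 and -0.55 in APAP against NC with quantile normalization and hepatocyte scaling (adjusted p = 0.149 and 0.0809), and in AMSC against NC it fell by 0.48 with the former (adjusted p = 0.0453) and was -0.52 with the latter (adjusted p = 0.0503). Relative to the shifted medians of hepatocyte scaling, Cps1 was -0.21 in APAP against NC and -0.24 in AMSC against NC. Arg1 was 0.07 and 0.02 in AMSC against NC with quantile normalization and hepatocyte scaling, the latter 0.30 above the shifted median. Ass1 was -0.03 in APAP against NC with quantile normalization, and it turned sign under both scalings in AMSC against NC (-0.21 and -0.10), as did Gls2 (-0.15 and -0.35). Relative to the median of all genes, Ass1 was then -0.18 with quantile normalization and 0.18 with hepatocyte scaling, and Gls2 was -0.11 and -0.06. Hal kept its fall in AMSC against APAP under both (-0.82 each, adjusted p = 0.0377 and 0.0318), and Sds its rise in AMSC against NC (1.94 and 1.73). Of the list genes named above, Ftcd, Slc7a2, Slc25a22, Agxt, Gldc and Hsd17b6 lost their call in APAP against NC with hepatocyte scaling (adjusted p 0.0534 to 0.403), all but Slc25a22 also with quantile normalization (0.0575 to 0.13), as did Amdhd1, Slc25a22 and Agxt in AMSC against NC (0.146 to 0.555), and none turned sign.

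**Figure D5:**
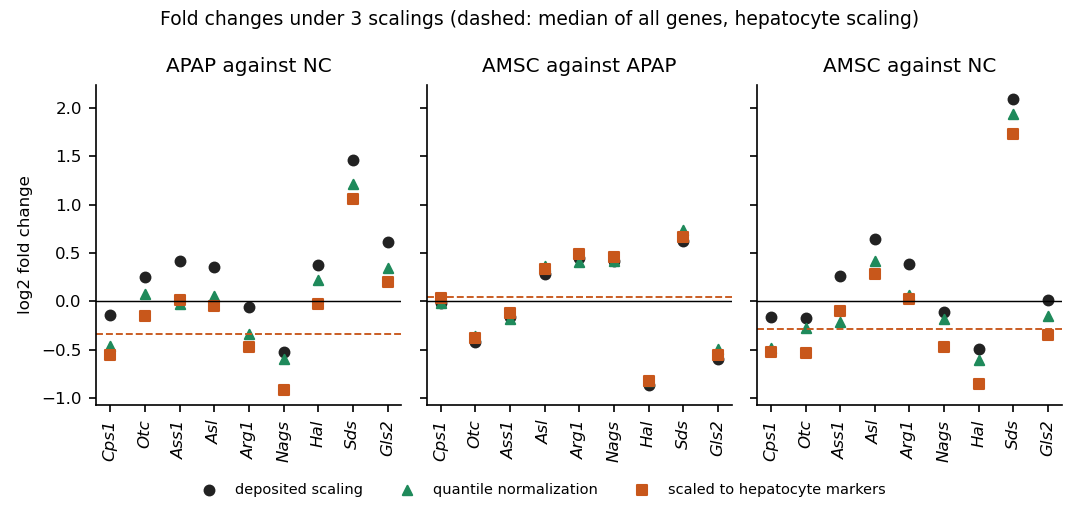
Log2 fold change of the 9 genes in the deposited scale (black circles), after quantile normalization (green triangles) and after scaling to 16 hepatocyte markers (orange squares), with the median of all genes under the last as a dashed line. In every comparison in which Sds, Hal or Nags was called in the deposited scale, all 3 of its points lie on 1 side of 0, whereas Otc, Asl and Hal in APAP against NC lie above 0 in the deposited scale and below it with hepatocyte scaling.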

How the data were processed

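Liver RNA of 9 mice was sequenced. The authors deposited FPKM values per gene with gene lengths, from which whole read counts were recovered within 0.1 for all values above 0. The genome build was GRCm38 per the labels, and the aligner and counting program are not given in the sources used here. A read on a gene of 1 kb was worth 0.0578 to 0.0599 FPKM in NC, 0.0744 to 0.0807 in APAP and 0.0630 to 0.0769 in AMSC. NC replicate 3 and AMSC replicate 4, with 15376434 and 15259968 reads on genes, differed in this worth (0.0581 and 0.0665). The deposited scale thus did not follow reads on genes alone. Fold changes from NC in this scale include the factor, and voom kept it. Groups came from the labels. The label of NC replicate 3 bears a different date from the others, and what the date marks is not stated. Genes whose mean reached 1 FPKM were tested on log2(FPKM + 1) with limma 3.58.1 (lmFit, eBayes with trend) in R 4.3.3, with 2 groups per fit and Benjamini-Hochberg adjustment over 9699 genes. Fold changes on this scale understate the change of low genes. The p-values measure the spread between these 3 libraries per group. Same-numbered NC and APAP libraries had deviations with correlations of 0.213, 0.16 and 0.378. Libraries of unlike number were not compared, and the title of NC replicate 3 gives another number, so pairing is not established. The main tests used no pairing. As an alternative, the replicate number as a block changed no APAP against NC call of a member other than Nags. In the other comparisons the numbers likewise mark no known pairs. The members, lists and tests were chosen with earlier results of these data known. All 9 members are named, and of each list up to 4 called genes with the largest change in each comparison, though some that meet this are left out. Other settings tried were 0.1 as pseudocount, all genes above 0, a minimum mean of 5 FPKM, quantile normalization, hepatocyte marker scaling, all 9 libraries in a single fit, no trend, the replicate block, voom and leaving out each library. Tables were made in Python 3.11.15 (pandas 2.3.3) and figures with matplotlib 3.10.9.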

Additional observations from a re-analysis of the deposited data

How the results depend on the processing

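The number of members called went from 3 to 0 in APAP against NC and from 1 to 0 in AMSC against APAP when all 24849 genes above 0 were tested. In AMSC against APAP it was 2 with all 9 libraries in a single fit, without the trend and with voom. Leaving out 1 library gave 0 to 3, 0 to 1 and 2 to 3 called members in APAP against NC, AMSC against APAP and AMSC against NC. With the replicate block the count was 0 in AMSC against APAP and 1 in AMSC against NC (Sds), where the libraries share only a number (correlations -0.104 and -0.293, and -0.199 and -0.309). In APAP against NC, where pairing is not established either, the block gave 2 called members. Signs turned for Ass1 (-0.030, quantile normalization) and Otc, Asl and Hal (-0.15, -0.051 and -0.026, hepatocyte scaling) in APAP against NC. Relative to the shifted median of all genes, Otc, Asl and Hal were 0.19, 0.29 and 0.31 in APAP against NC. Without 1 library, Arg1 ran there from -0.14 to 0.039 and Cps1 from -0.30 to 0.034. In AMSC against APAP, Cps1 was 0.029 with hepatocyte scaling, 0.17 with the block and -0.19 to 0.14 without a library. In AMSC against NC, Ass1 was -0.21 and -0.10 and Gls2 -0.15 and -0.35 under the 2 scalings, and Gls2 ran from -0.063 to 0.12 without a library. Relative to the shifted median of hepatocyte scaling, Ass1 was 0.18 and Gls2 -0.06. Of 243 member values under the other settings, 209 kept their direction and side of the threshold, 12 lost and 12 gained the call and 10 reversed. Of 162 values without 1 library, these numbers were 131, 20, 1 and 10. List genes also lost calls when all 24849 genes above 0 were tested. In AMSC against APAP these included Glul, Oat, Slc1a2, Gpt2, G6pc, Klf15, Tdo2, Cdh1, Hsd17b6, Cyp2f2 and Cyp2e1 (adjusted p 0.0723 to 0.226). In APAP against NC they included Ftcd, Slc7a2, Agxt, Gldc, Got1, Cth, Cebpb, Foxa2, Klf15, G6pc, Hsd17b6, Pck1 and Cyp2e1 (0.0612 to 0.158). In AMSC against NC they included Slc7a2, Slc25a22, Hnf4a, Foxo1 and Tat (0.0517 to 0.0904). The cause was not tested.

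Over all genes, 2514 were called in APAP against NC (1243 higher and 1271 lower), and 4434 with hepatocyte scaling (669 and 3765). In AMSC against NC these were 2521 (1367 and 1154) and 4260 (666 and 3594), and 846 with the block. In AMSC against APAP, 367 were called, 53 of all genes above 0, 178 at a mean of at least 5 FPKM and 624 with all 9 libraries. Leaving out 1 library gave 1353 to 2749, 100 to 366 and 1678 to 2356, more than 1.5 times fewer without NC replicate 1 (1413) or 2 (1353) or APAP replicate 2 (1655), without APAP replicate 3 (120) or AMSC replicate 2 (105), 3 (100) or 4 (101), and without NC replicate 2 (1678). Each member had at least 759 reads in a library, and having 3 libraries in a group limits the precision.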

Other observations

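Genes of aromatic and other amino acid breakdown formed a further group around the urea cycle. Of 23 tested, 2 rose and 3 fell in APAP against NC, 1 rose in AMSC against APAP, and 6 rose and 3 fell in AMSC against NC, with median log2 fold changes of -0.09, 0.05 and -0.09. Tat, the first enzyme of tyrosine breakdown and a known target of glucocorticoids, had 949.6, 563 and 474 FPKM in NC, 858, 1280 and 1035 in APAP, and 1880, 2180 and 1585 in AMSC. All AMSC libraries lay above all others, and Tat rose in AMSC against NC (1.56, adjusted p = 0.00352). Of the sulphur amino acid enzymes, Cbs rose by 0.76 (adjusted p = 0.0097) and Cth by 0.65 in APAP against NC (adjusted p = 0.0334). The call of Cth was lost without NC replicate 2 or 3 or APAP replicate 2 or 3 (0.0717 to 0.12) and with the replicate block (0.0596). With hepatocyte scaling Cbs was 0.35 (adjusted p = 0.103) and Cth 0.24 (0.253), and Cth was 0.34 with quantile normalization (0.144). In AMSC against NC, Cbs rose by 0.52 (adjusted p = 0.0368) and Cth by 0.53 (0.037), calls not tried without single libraries. AMSC against APAP was -0.23 for Cbs (adjusted p = 0.4) and -0.12 for Cth (0.701). Mat1a, which makes S-adenosylmethionine, rose by 0.79 in AMSC against NC (adjusted p = 0.0136). That call was lost with quantile normalization (0.36, adjusted p = 0.118), with hepatocyte scaling (0.42, 0.095) and with all genes above 0 (0.0931). Tdo2, the first enzyme of tryptophan breakdown, rose by 0.69 in AMSC against APAP (adjusted p = 0.0489), and this call was lost without any 1 of the 6 libraries (0.0722 to 0.155). Tdo2 also rose by 0.59 in AMSC against NC (adjusted p = 0.0224, not tried without single libraries), and APAP against NC was -0.10 (0.622).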
